A study of Salmo salar with 54 samples.

Results

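The 99 genes described here were raised in Atlantic salmon hepatocytes at 3 µM arsenite and close to their control level at 1 µM. Members were chosen by values: on the mean of log2(normalised reads + 1) over the 6 libraries of a group, a member was at least 1.5 above the arsenite control at 3 µM, less than 0.3 away from it in either direction at 1 µM, and averaged at least 20 normalised reads at 3 µM. Of the 18901 genes measured, 1650 met the conditions on the rise and on the reads, and 1540 of those were already 0.3 or more above control at 1 µM, while 11 were 0.3 or more below it. The 99 members are 6.00% of the 1650. By the reference table, 31 carry a gene symbol, 68 a locus name only, 97 are protein coding and 2 are long non-coding RNAs.

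RNA was sequenced from primary liver cells of 6 male Salmo salar, freed by collagenase perfusion, grown on 3-dimensional scaffolds and exposed for 48 h. The arsenite (AsIII, trivalent inorganic arsenic) series held 6 libraries each at 0.1, 1 and 3 µM and in its own control. The arsenosugar (AsSug, arsenosugar glycerol, arsenic bound to a ribose) series held 6 libraries each at 5, 10, 50 and 250 µM and in another control. This makes 54 libraries in 9 groups, with 1 library per fish and group. All cells, controls included, shared the medium with fetal bovine serum and antibiotics, and the cells of a group are not independent of those of another group, since the same 6 fish gave all of them. Genotype, strain and age were not given in the sources used here.

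Arsenite binds thiol groups of proteins, so cells exposed to it gather misfolded and oxidised proteins. Several programmes are known to answer this: heat shock factors raise chaperones, the unfolded protein response (Ire1 with Xbp1, Perk with Atf4, and Atf6) acts on the endoplasmic reticulum, Nrf2 raises glutathione genes, and stress kinases act on Jun and its AP-1 partners. In liver cells these programmes run beside the secretory and metabolic work of the hepatocyte. Genes that share a programme can still differ in the dose at which their RNA changes, which is the property by which the members were picked.

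Libraries held 8792894 to 23988824 reads in 8 of the groups and 897560 to 5383764 reads at 250 µM arsenosugar. Genes without a read numbered 207 to 921 in the 250 µM libraries and up to 39 in the rest, and the labels mention a different RNA integrity for that group. Among 7 measured hepatocyte markers the summed normalised reads were 336253 to 425379 at 3 µM, against 484362 to 606535 in the arsenite controls, and 141822 to 340409 at 250 µM, against 457227 to 607350 in the arsenosugar controls. These sums were carried mostly by tfa and fgg, with means of 286424 and 153275 in the arsenite controls. At 3 µM 5 of the 7 were lower, and apoa1 and hp were not called. At 250 µM 4 were lower, ttr (0.62) and fga (0.53) were higher and hp was not called. The markers of other liver cells did not move as sets, and their sums follow 1 abundant gene each. The 2 endothelial genes summed to 409 to 547 at 3 µM, against 147 to 230 in controls, but esamb rose (1.4) and kdr fell (-1.13). The 4 stellate cell genes summed to 1647 to 2148, against 319 to 678, with timp2 (2.39) and timp2a (0.42) higher, fn1a lower (-1.43) and acta2 not called. The 3 macrophage genes summed to 1469 to 1935, against 2532 to 3251, where cd68 fell (-0.82) and lyz (0.60) and mpeg1.1 (1.11) rose. The 2 cholangiocyte markers summed to 3039 to 3373, against 2847 to 3527, with jag1b higher (1.04) and anxa4 not called, and the 1 erythrocyte marker, not called, was at 222 to 356, against 210 to 395. These changes are log2 values from limma at an adjusted p below 0.05. None of these was at 0 in any group, none is a member, no lymphocyte marker was measured, and the part of other cell types in the members' rise was not tested. At 1 µM, where the members averaged near control, 6 of the 7 hepatocyte markers were already lower, and their sums were 325950 to 477321. The sums there were 247 to 327 for endothelial, 1005 to 1499 for stellate cell and 1787 to 2386 for macrophage genes. Cholangiocyte genes summed to 2280 to 2731 and the erythrocyte marker was at 204 to 344. In bulk RNA, fewer cells of a type and less RNA per cell cannot be told apart.

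At the members the response to arsenite was a step at the top concentration. The median of the 99 values in a library was 5.31 to 5.50 on the log2 scale in the 6 controls, 5.20 to 5.82 at 0.1 µM, 5.33 to 5.55 at 1 µM and 7.04 to 7.44 at 3 µM. The groups below 3 µM overlapped one another, and none of their libraries came near the 3 µM ones. Differences between 3 µM and control reached 5.63 and started at the limit of 1.5, with a median of 1.78. They were at least 2 (4-fold) in 27 members and at least 3 in 3, and lay between 1.5 and 2 in 72. Between 1 µM and control the median difference was 0.11, positive in 73 members and negative in 26. It lay at 0.2 or more in 20 members and at -0.2 or less in 5. In 96 members every 3 µM library lay above the highest control, against a background of 28.3% of all genes tested, and in 95 every 3 µM library lay above the highest 1 µM library. tagl2, LOC106612490 and LOC106565406 were the 3 with an overlap with control. All of these figures describe what the selection asked for, and no test was made on them.

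**Figure D1:**
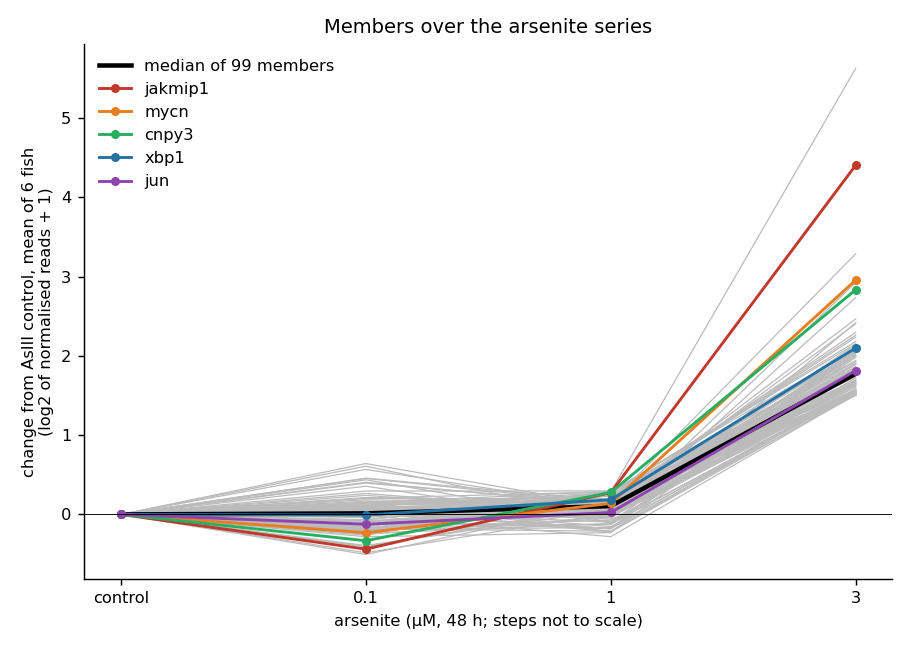
Change of each of the 99 members from the arsenite control (y axis, log2 of normalised reads + 1, mean of 6 fish) over the 4 arsenite groups (x axis, µM, steps not to scale), with the median of the members in black and 5 named members in colour. The median stays at 0.01 at 0.1 µM and 0.11 at 1 µM and reaches 1.78 at 3 µM.

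The limits of the selection cut through a continuous range of values. Just inside the rise of 1.5 were rab11fip1a at 1.5022 and LOC106586304 at 1.5049. Just outside it were spdl1 at 1.4999 and LOC106582315 at 1.4968. At the limit for 1 µM, LOC106562610 at 0.2976 and LOC106583953 at 0.2962 were members, and LOC106612890 at -0.3019 and LOC106564938 at 0.303 were not. The members with the fewest normalised reads at 3 µM were tenm4 with a mean of 24.7 and LOC106583399 with 34.8, and no gene that met the other conditions lay under 20. Scaling the libraries by their total reads in place of the authors' size factors lowered the median of all genes at 3 µM to -0.14, against -0.02, and left 55 genes, of which 54 are among the 99.

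The transcription factors xbp1, jun and mycn, known from stress and growth responses, are members, and each averaged within 0.3 of control at 1 µM, as the selection asked. xbp1 (GeneID 100846957) encodes the factor that Ire1 splices during stress of the endoplasmic reticulum. Its normalised reads were 2302 to 2946 in controls (median 2494), 2279 to 2988 at 0.1 µM (median 2378), 2489 to 3413 at 1 µM (median 2794) and 9823 to 12241 at 3 µM (median 10862). The lowest 3 µM library lay far above every other arsenite library, and the difference was 2.10 ± 0.22 (SD over 6 fish, log2), close to the same size in each fish. These reads do not separate the spliced form from the unspliced one.

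jun (GeneID 106613963), the AP-1 subunit that Jun kinases act on, had 398 to 534 normalised reads in controls (median 458), 375 to 526 at 0.1 µM (median 417), 375 to 951 at 1 µM (median 427) and 950 to 3698 at 3 µM (median 1489). The 951 at 1 µM and the 3698 at 3 µM both came from fish 2. In the other fish the 1 µM libraries held 375 to 433, inside or just under the range of the controls. The difference at 3 µM averaged 1.82 ± 0.59 and was between 1.15 and 2.79 in single fish.

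mycn (GeneID 106571147), a Myc family factor best known from neural and embryonic growth, was carried by few reads, 72 over the 6 controls. It had 7.40 to 18.1 normalised reads in controls (median 7.44), 4.20 to 13.9 at 0.1 µM (median 7.54), 5.72 to 18.6 at 1 µM (median 9.36) and 72.0 to 82.9 at 3 µM (median 78.3). The 6 libraries at 3 µM sat within a narrow band far above the rest, and the difference was 2.96 ± 0.52. Its relatives in the list of immediate early genes did not share the pattern: myc was at -0.23 ± 0.12 (standard error) at 3 µM with an adjusted p of 0.0841 and mycb fell by 0.96 ± 0.12 (adjusted p = 1.7e-07), both by limma.

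**Figure D2:**
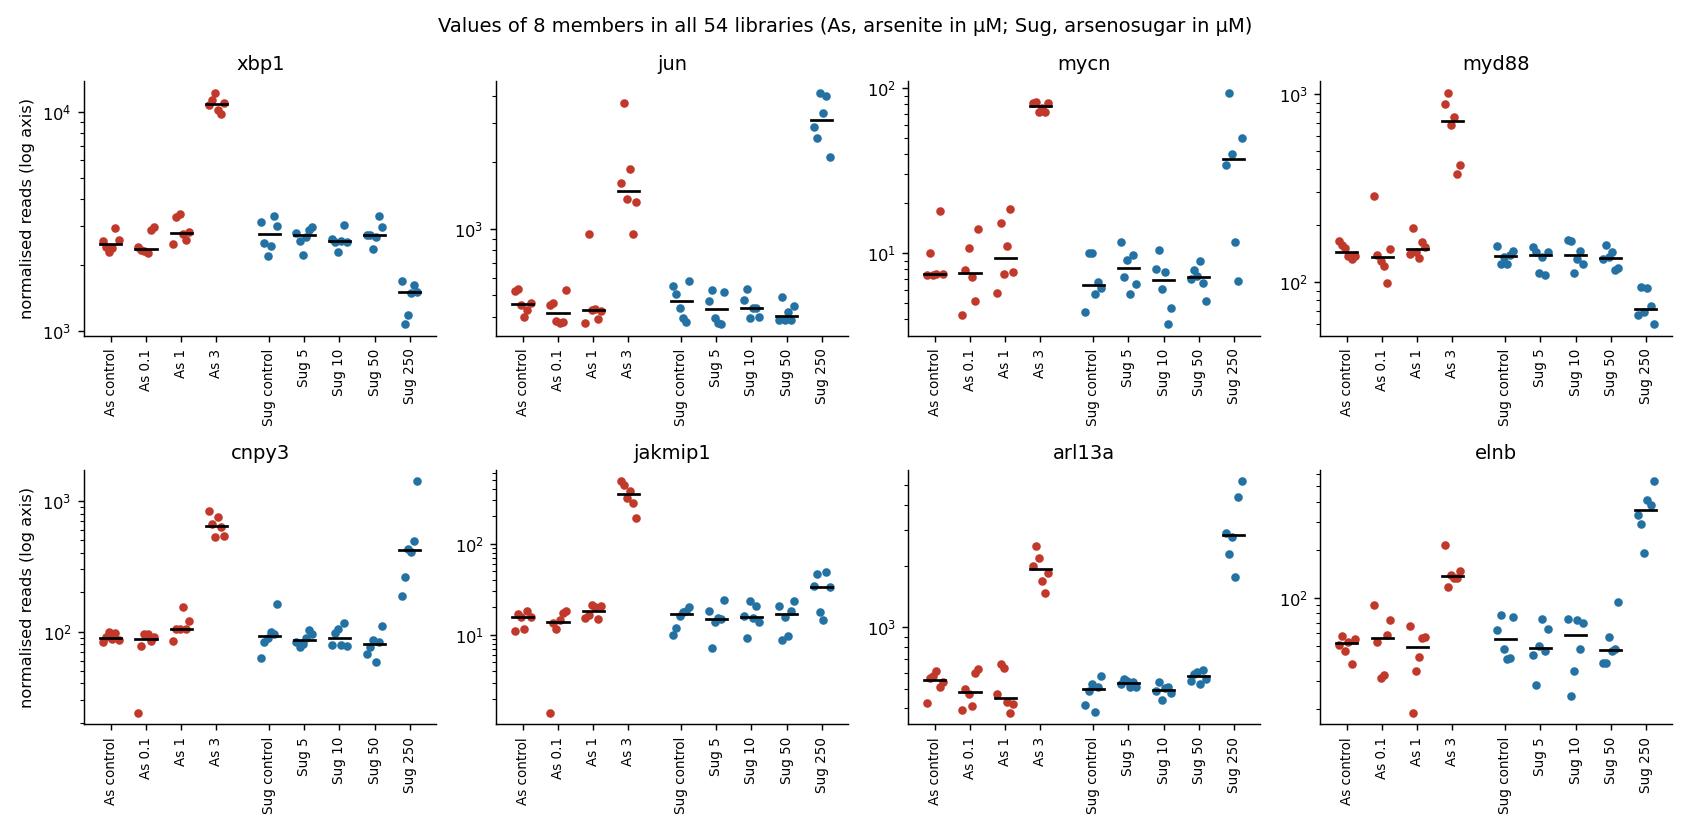
Normalised reads (y axis, log scale) of 8 members in each of the 54 libraries, with arsenite groups in red and arsenosugar groups in blue, in order of concentration in µM (x axis). Points are the 6 fish and bars the medians; xbp1 at 3 µM arsenite lies at 9823 to 12241, above all its other libraries, while jun, arl13a and elnb have their highest medians at 250 µM arsenosugar.

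A set of 8 members acts in signalling or membrane traffic, and their differences at 3 µM lay between 1.5 and 2.14. myd88 (GeneID 100169859), the adaptor that passes signals from Toll-like and interleukin-1 receptors, had 133 to 165 normalised reads in controls (median 144), 134 to 194 at 1 µM (median 150) and 377 to 1019 at 3 µM (median 718). The 3 µM libraries overlapped no other arsenite library, of which the nearest was fish 1 at 0.1 µM with 287, and the fish spread widely, with differences of 1.5 to 2.69 around a mean of 2.14. grb2, the adaptor between receptor tyrosine kinases and Ras, had 80.9 to 92.8 in controls, 87.2 to 136 at 1 µM and 200 to 291 at 3 µM. It was higher at 1 µM than in control in 6 of 6 fish, as were cnpy3, btg2, isca1 and LOC106583953, and its 3 µM difference of 1.52 ± 0.14 was among the most even over fish.

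The small GTPase rit1, of the Ras family, had 102 to 156 normalised reads at 3 µM, against 32.8 to 46.8 in controls. rin2a, named after a Rab5 exchange factor that binds Ras, had 38 to 61.2, against 7.41 to 22.2, and rhpn2 had 103 to 166, against 29.6 to 47.3. For each of these 3 genes the groups were apart. rab11fip1a, an effector of Rab11 in membrane recycling, had 610 to 762, against 217 to 303. Its copy rab11fip1b, which is no member, differed by 0.51 at 3 µM and by -0.24 at 1 µM, so the pair did not move alike. ehd2b, of a family that shapes membranes at caveolae, had 49 to 83.4 at 3 µM, against 10.2 to 20.6 in controls. arl13a, an Arf-like GTPase, had 1481 to 2508, against 423 to 613.

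Members linked to protein folding and to ubiquitin-like modifiers were cnpy3, bbs10, isg15 and rn146. cnpy3 (GeneID 106608446) is known in mammals as a chaperone of the endoplasmic reticulum that Toll-like receptors need to leave it. It had 83.2 to 99.4 normalised reads in controls (median 89.1), 84.2 to 154 at 1 µM (median 104) and 529 to 834 at 3 µM (median 650). The 3 µM libraries stood well clear, with a difference of 2.83 ± 0.33. bbs10, related to chaperonins and known for its part in assembling a ciliary complex, had 72.0 to 137 at 3 µM, against 15.9 to 25.5 in controls. Its span in the reference overlaps that of LOC106576084, which differed by 1.55 at 1 µM and 3.11 at 3 µM, against -0.23 and 2.08 for bbs10. The 2 genes have values of their own, but with no strand setting given it is not known how far their reads were mixed. isg15, an ubiquitin-like modifier known from the interferon response, had 1239 to 2116 at 3 µM, against 364 to 578 in controls, and differed by 1.83 ± 0.18. rn146 (rnf146), an E3 ubiquitin ligase, had 483 to 605, against 144 to 187. Both genes were higher at 3 µM in every fish, by at least 1.63 for isg15 and 1.42 for rn146.

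Growth arrest, DNA repair and transcript elongation were represented by btg2, xrcc3, polr2m and LOC100196378. btg2 (GeneID 101448010), an antiproliferative gene that p53 is known to raise, had 138 to 181 normalised reads in controls (median 156), 180 to 221 at 1 µM (median 187) and 599 to 943 at 3 µM (median 719). Its 3 µM libraries were above all others and the difference was 2.18 ± 0.26. xrcc3, known from DNA repair, had 43.3 to 65.3 at 3 µM, against 11.2 to 23.1 in controls. polr2m, which binds RNA polymerase II, had 182 to 296, against 56.8 to 97.9, and LOC100196378, listed with the synonym ell2 (an elongation factor of the same polymerase), had 44.8 to 66.9, against 14.8 to 19.5. In these 3 genes as well no 3 µM library overlapped a control.

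Mitochondria and vitamin E transport were represented by isca1, ppm1ka and ttpa. isca1, which takes part in building iron-sulphur clusters in mitochondria, had 641 to 1059 normalised reads at 3 µM, against 183 to 240 in controls. ppm1ka, named after the phosphatase that activates the breakdown of branched-chain amino acids, had 38.4 to 91.2, against 6.51 to 17.6. ttpa, the transfer protein that liver cells use to export vitamin E, had 65.0 to 80.6, against 12.3 to 21.4. The differences of the 3 genes were 2.06 ± 0.28, 2.30 ± 0.31 and 1.99 ± 0.31, which overlap within their SDs over fish.

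A set of 5 members belongs to matrix, adhesion or cytoskeleton. jakmip1 (GeneID 106604864), which links microtubules and Janus kinases in mammals, had the largest difference among members with a symbol. It had 11.1 to 18.1 normalised reads in controls (median 15.8), 14.9 to 21.1 at 1 µM (median 18.4) and 191 to 482 at 3 µM (median 346). The ratio of the mean at 3 µM to the mean in control was 23.3, and single fish differed by 3.52 to 5.32. elnb, an elastin of the extracellular matrix, had 117 to 214 at 3 µM, against 38.7 to 57.5 in controls. lrrc1, a relative of the polarity protein Scribble, had 105 to 125, against 27.9 to 43.5. tenm4, a teneurin of the cell surface, had 15.6 to 35, against 4.79 to 12.1, the fewest reads of any member at 3 µM. For tagl2, a transgelin that binds actin, the range at 3 µM was 21.2 to 52.1, against 7.98 to 21.5 in controls, so the groups touched. lmbr1l, bca3, si:dkey-175m17.7 and si:dkey-177p2.6, which were given no role here, differed by 1.83, 2.00, 1.90 and 1.54.

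Of the genes with a locus name only, LOC106570892 had the largest difference of all members at 5.63 ± 1.80. It was close to silent in controls, with 0 to 21.4 normalised reads and 54 reads in all over 6 libraries, and had 1.52 to 14.3 at 1 µM and 194 to 406 at 3 µM. LOC106590971, with more reads, had 240 to 431 in controls, 214 to 459 at 1 µM and 2088 to 2852 at 3 µM, a difference of 2.93 ± 0.44. In neither gene did a 3 µM library approach the 1 µM range. LOC106563198 was the other member without a symbol among the 6 with the most reads at 3 µM, 2251 to 2851, against 815 to 908 in controls. The long non-coding RNA LOC106578269 had 246 to 344 at 3 µM, against 38.8 to 63.6, and the other one, LOC106612844, had 43.9 to 109, against 16.9 to 26.1.

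Members were mostly genes with few reads. The mean of a member in the arsenite controls ranged over 7.42 to 2540 normalised reads with a median of 39, against a median of 110 over all genes. In 77 members it was under 100. The rule set a minimum of reads at 3 µM only, where members are high. Other genes with a rise of that size were not set beside them, so few reads are not shown to be particular to the members. At 3 µM the means were 24.7 to 10886, with a median of 147. These are reads that were not divided by gene length, so they do not rank the genes by level. Each gene could be measured in nearly every arsenite library, in which at most 1 member had no reads.

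Some members lie side by side. Of the 97 members that could be placed in the gene order of the reference, 8 form 4 pairs of adjacent measured genes: LOC106570892 with LOC106570894, cnpy3 with LOC106591872, bca3 with LOC106561062, and LOC106594193 with LOC106591982. A measured neighbour with a 3 µM difference of 1.5 or more, member or not, was found for 27 of the 97 (27.8%), against 16.6% of the 18588 genes placed and 22.1% of the 1535 other genes with a rise of that size. Among the neighbours, csrnp1b beside myd88 differed by 2.62 at 1 µM and 5.95 at 3 µM, and LOC106578270 beside LOC106578269 by 1.42 and 4.17. Spans of 4 members overlap those of a neighbour (bbs10, LOC106584283, LOC106609842 and LOC106585232), which makes their values uncertain without a strand setting. The shares are descriptions and were not tested.

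All 99 members were higher at 3 µM than in control in each of the 6 fish. The selection used the mean of these same fish, so this is a description and no replication. The share of all genes higher in 6 of 6 fish was not set beside it. The median difference of the members was 1.88, 1.96, 1.73, 1.78, 1.61 and 1.71 in fish 1 to 6. Fish 2 and 1 had the largest difference for 35 and 29 members, and fish 6 and 5 the smallest for 35 and 29. At 1 µM the median was 0.32 in fish 2, where 79 members were above control, and -0.03 to 0.09 in the other fish. The SD of a member over fish had a median of 0.35 and ranged over 0.13 to 1.80. LOC106611262 (0.13), LOC106586183 and LOC106564701 (0.14 each) were the most even members.

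**Figure D3:**
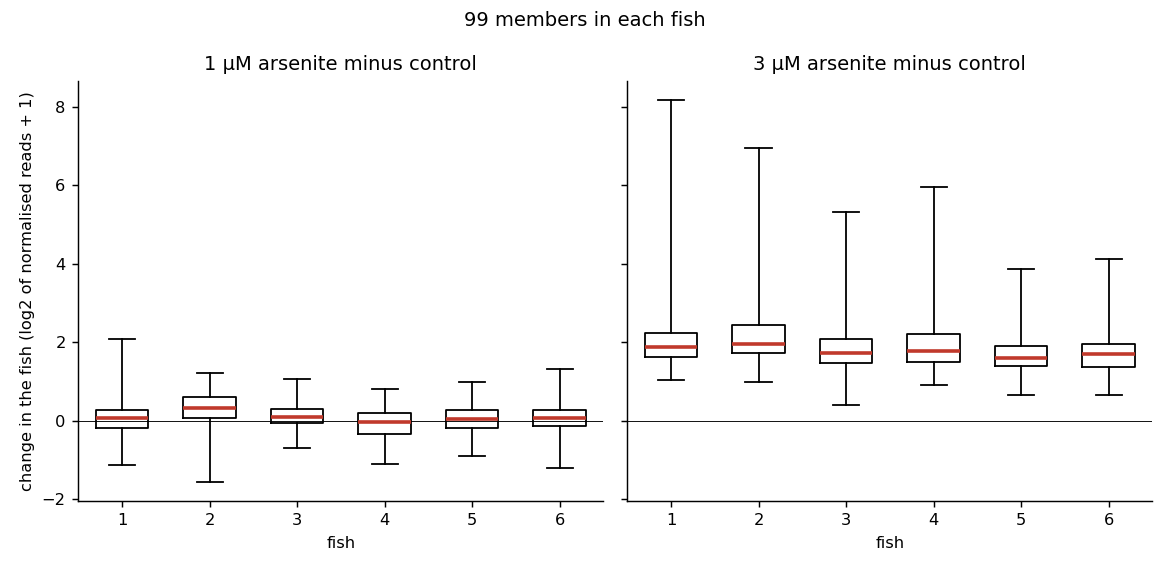
Change of the 99 members from the arsenite control of the same fish (y axis, log2 of normalised reads + 1) at 1 µM (left) and 3 µM (right) in fish 1 to 6 (x axis). Boxes show the quartiles, red lines the medians and whiskers the whole range; medians at 3 µM lie between 1.61 and 1.96, and at 1 µM fish 2 stands above the others at 0.32.

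The 3 least even members were LOC106570892, LOC106602015 and LOC106591872, and in each the unevenness lay in the controls and at the lower concentrations. LOC106602015 had 4.62 and 7.67 normalised reads in the controls of fish 1 and 2 and 29.8 to 56 in those of the other 4 fish. At 1 µM fish 1 and 2 again had the lowest values, 8.17 and 12.2, against 31.2 to 45.7. The arsenosugar controls, which are other libraries of the same fish, gave 3.29 and 6.98 for fish 1 and 2, against 34 to 100 for the others. At 3 µM its values were 181 to 327 over the 6 fish, with fish 1 the highest. LOC106591872 had 1.85 and 2.30 in the controls of fish 1 and 2, and 6.91 to 19.5 in the others, but 43.8 to 73.7 over all fish at 3 µM. LOC106570892 had 0 and 2.30 in the controls of fish 1 and 2, and 4.25 to 21.4 in the others. In these genes the ratio of the highest to the lowest fish was thus far smaller at 3 µM than in the controls; this was seen in the values and not tested.

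Repeating the selection on 5 fish gave 99 to 107 genes, of which 79 to 91 are among the 99, and the fish left out then supplied values the choice had not used. In those fish every gene chosen was higher at 3 µM than in control, apart from 1 of 103 in fish 2. Of all genes 48.6% to 50.8% were higher in the same fish. The difference reached 1.5 in 59% to 89.3% of the chosen genes, against 8.31% to 10.2% of all genes in the same fish. The flat part of the pattern held less well. At 1 µM the fish left out was within 0.3 of its control for 29.1% to 57.0% of the chosen genes, against 33.6% to 38.8% of all genes. Fish 2 gave the lowest of these shares, with a median 1 µM difference of 0.50. Being near control at 1 µM was thus a statement on the mean of the fish more than on each fish. The 1 µM difference in the fish left out was positive for 87 of 103 chosen genes in fish 2, the most. It was positive for 47 of 99 in fish 4, the fewest. What part scatter of few reads had in this was not tested.

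At 0.1 µM arsenite no member was called by limma, nor by edgeR, and in all 2 of 18899 genes were (0.0106%). The median difference of the members was 0.01, with a range of -0.51 to 0.64, and 7 of 99 were under an unadjusted p of 0.05, against 7.79% of all genes. The selection used the same control libraries. The 0.1 µM library of fish 1, with 8792894 reads the shallowest outside 250 µM arsenosugar, stood apart at several members: jakmip1 had 1.4 normalised reads in it, against 11.6 to 18.5 in the other 5, cnpy3 had 23.8, against 77.3 to 96.5, and myd88 had 287, against 98.6 to 150. The middle 50% of members covered -0.32 to 0.61 in that fish. Without fish 1 no member was called either.

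Arsenosugar left the members near control over the range of 5 to 50 µM. These libraries were not used to choose the genes, and their controls differed from the arsenite controls by a median of 0.02 over the members (-0.65 to 0.65). By limma 0 of 98 members tested were called at 5 µM (background 0.106%), 0 at 10 µM (0.0159%) and 1 at 50 µM (0.563%); mycn had too few reads. Unadjusted p-values under 0.05 were found for 9, 8 and 8 members, near the 7.03%, 5.91% and 10.8% of all genes. By edgeR 0, 0 and 1 members were called. Medians were -0.01, -0.03 and -0.05, and differences of more than 0.5 in either direction occurred in 4, 3 and 2 members. The 1 called gene, LOC106569928, had 365 to 445 normalised reads at 50 µM, against 457 to 557 in the arsenosugar controls. Its libraries did not overlap and it was lower in 6 of 6 fish, by -0.28 ± 0.06 (standard error, adjusted p = 0.0154). Background for a lower call was 0.191%, and the call was lost when any of fish 1 to 5 was left out, without the fish term, with library totals and in a fit of the 12 libraries alone.

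**Figure D4:**
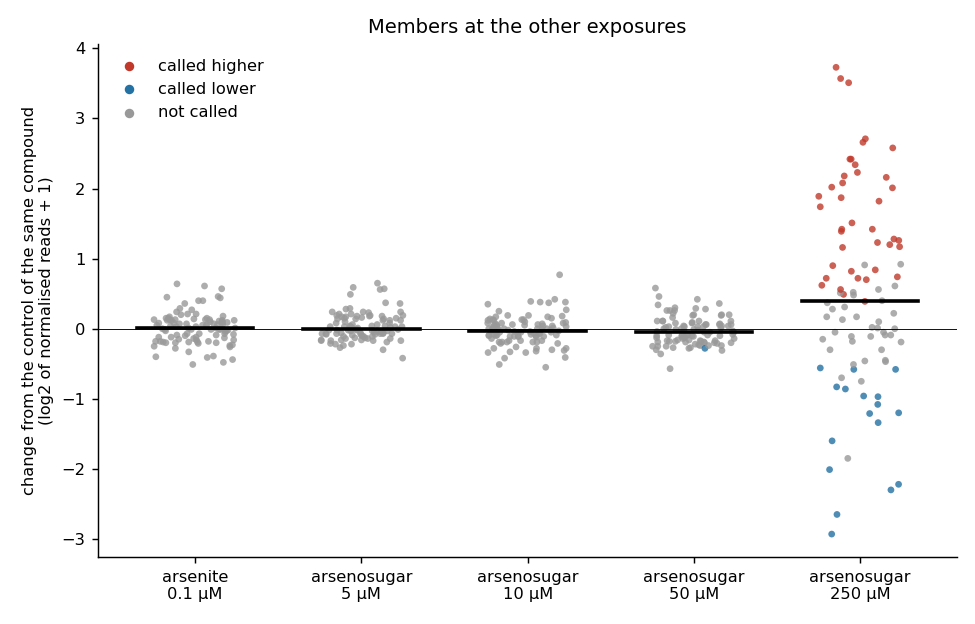
Change of the members tested from the control of the same compound (y axis, log2 of normalised reads + 1, limma) at the exposures not used to choose them (x axis). Points are members, coloured by call at an adjusted p below 0.05, and bars are medians; only 250 µM arsenosugar spreads the members, over -2.93 to 3.73.

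At 250 µM arsenosugar the members went both ways. Of the 94 that could be tested, 40 rose, 17 fell and 37 were not called. The 40 make up 40.4% of all 99 members, the untested ones included, beside 26.7% called higher of the 18756 genes tested. The 17 make up 17.2% of the 99, beside 36.5% of the genes tested called lower. Those 17 had a median of 138 normalised reads in the arsenosugar controls, against 39.2 in the members not called. Whether few reads kept falls from being called in members was not tested. The minimum for testing let in some genes with few reads through high 250 µM libraries. Without that minimum 41 members rose and 17 fell, beside 26.5% and 36.5% of all genes. Scaled by library totals, 48 members rose and 11 fell, beside 34.3% and 26.1% of all genes. The median of the members was 0.39, against -0.20 over all genes, and 0.70 against 0.09 with library totals. In 23 members all libraries at 250 µM lay above the highest control (background 16.5%) and in 9 all lay below the lowest (22.9%). Depth and RNA integrity also differ between these groups and cannot be told apart from the exposure. The deposited column names carry another prefix for the 250 µM libraries than for their controls and the 5 to 50 µM libraries. What the prefix marks was not given in the sources used here, and it cannot be told apart from the exposure either. Marker sums of other cells at 250 µM were 236 to 307 for endothelial genes, against 181 to 221 in the arsenosugar controls, where esamb rose (0.57) and kdr fell (-2.28). They were 157 to 250 for stellate cell genes, against 310 to 723, with 3 of 4 lower and acta2 not called, and 651 to 1607 for macrophage genes, against 2537 to 3083, with cd68 and lyz lower and mpeg1.1 not called. The erythrocyte marker was higher (509 to 729, against 252 to 365), and the cholangiocyte markers summed to 2112 to 2898, against 2561 to 3271, with jag1b higher (2.69) and anxa4 lower (-0.43). Their part in the members' values was not tested.

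Among those that rose, 29 did so by at least 2-fold, 32 in 6 of 6 fish, and 18 reached a higher mean than at 3 µM arsenite. No share over all genes stands beside these 3 counts, so they are not shown to be particular to the members. The last count also sets libraries of another series and of other depths side by side and does not rank the exposures. jun had 2120 to 4130 normalised reads at 250 µM (median 3105), against 380 to 581 in the arsenosugar controls (median 473). The groups did not overlap, and the change was 2.71 ± 0.19 (standard error, adjusted p = 1.1e-08, limma, 6 of 6 fish). arl13a had 1777 to 5224, against 385 to 574, a change of 2.66 ± 0.16 (adjusted p = 3.1e-09). The largest rises were those of LOC106570894, at 3.73 ± 0.28, LOC106603954, at 3.57 ± 0.24, and the non-coding LOC106612844, at 3.51 ± 0.22. LOC106570894 had 270 to 1684 normalised reads at 250 µM, against 31.6 to 64.5 in controls, while its neighbour LOC106570892 had too few reads for a test, 46 over the 6 libraries at 250 µM.

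Of the 3 other pairs of neighbours, both genes rose in cnpy3 and LOC106591872, by 2.16 ± 0.20 and 2.23 ± 0.39. In the others only 1 gene was called: bca3 rose while LOC106561062 was at -0.70 and not called, and LOC106594193 fell while LOC106591982 was at -0.51 and not called. cnpy3 had 186 to 1419 normalised reads, against 62.6 to 163. elnb, with 191 to 537, against 41.1 to 77.8, rose by 2.58 ± 0.21, and tenm4, with 18.2 to 181, against 5.74 to 9.93, by 2.42 ± 0.46. In these 3 genes the groups were apart. No arsenosugar control of tenm4 reached the value of 10 needed for testing. The gene entered the fit through its 250 µM libraries alone, so its call is a description and no independent support. LOC106583399, also called higher, entered mostly in this way. xrcc3 (1.74 ± 0.32), bca3 (1.82 ± 0.36), bbs10 (1.17 ± 0.35) and isg15 (0.72 ± 0.14) rose as well. LOC106590971 rose by 0.49 ± 0.16, and leaving out fish 6 (adjusted p = 0.0687) or the fish term (0.153) ended its call.

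The 17 that fell included the stress factor xbp1, and isca1 and ppm1ka, which were assigned to mitochondria here. xbp1 had 1073 to 1693 normalised reads at 250 µM (median 1499), against 2189 to 3348 in the arsenosugar controls (median 2758). Every exposed library lay below every control, and it fell by 0.96 ± 0.13 (standard error, adjusted p = 1.3e-05). btg2 had 37.7 to 117, against 124 to 220, and fell by 1.08 ± 0.20, and myd88 had 59.6 to 94.1, against 124 to 156, and fell by 0.86 ± 0.20. isca1 had 47.7 to 122, against 167 to 245, and fell by 1.21 ± 0.19. These 4 genes were lower in 6 of 6 fish, with no overlap of the groups. rn146 fell by 0.58 ± 0.17 and rab11fip1a by 0.56 ± 0.16.

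Further falls rested on fewer reads. LOC106611262, with 2.22 to 40.5 normalised reads, against 70.2 to 125, fell by 2.93 ± 0.46, and LOC106608780, with 4.44 to 61.2, against 77.3 to 114, by 2.30 ± 0.41. LOC106594193 (-2.65 ± 0.74), ppm1ka (-2.22 ± 0.75) and LOC106572235 (-2.01 ± 0.79) were lower in 6 of 6 fish but had 15, 13 and 14 reads over the 6 libraries, with 2 libraries at 0 in each. The call of ppm1ka was lost without fish 3 (adjusted p = 0.0643), and that of LOC106572235 without fish 2, 3 or 5 (adjusted p of 0.0660, 0.0754 and 0.116) and with library totals (0.0635).

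The 37 not called include jakmip1, whose 14.6 to 49.2 normalised reads at 250 µM, against 9.88 to 20.1, gave a difference of 0.92 ± 0.41 with an adjusted p of 0.0601. It passed the threshold in 6 of the alternatives, among them edgeR (adjusted p = 0.0297). grb2 (0.17 ± 0.21), polr2m (-0.11 ± 0.25), ttpa (-0.15 ± 0.48), rin2a (-0.19 ± 0.47) and lmbr1l (0.02 ± 0.23) were near their controls, with errors too wide to show that they did not change. LOC106570892, mycn, LOC106602549, si:dkey-175m17.7 and LOC106609842 did not reach the minimum for testing, with 10 to 74 reads over the 6 libraries at 250 µM. Of these, mycn had 6.78 to 94.1 normalised reads, against 4.39 to 9.97. In fish 5 its values were nearly equal, 6.78 against 6.70 in control, and in the other fish it was higher.

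**Figure D5:**
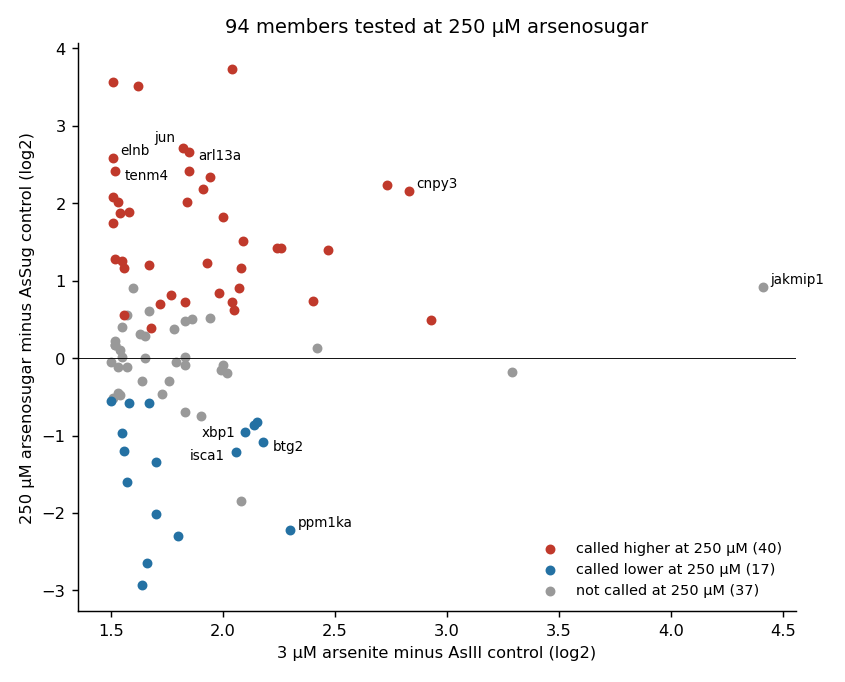
Difference at 3 µM arsenite (x axis, log2, used to choose the members) against the difference at 250 µM arsenosugar (y axis, log2, limma) for the 94 members tested, coloured by call at 250 µM. At a like rise in arsenite, jun and arl13a lie at 2.71 and 2.66 on the y axis and xbp1 and isca1 at -0.96 and -1.21.

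The size of the rise in arsenite did not set the 3 outcomes far apart: the median 3 µM difference was 1.85 in members that rose at 250 µM arsenosugar, 1.70 in those that fell and 1.67 in those not called. Their reads in the arsenosugar controls differed, with medians of 42.4, 138 and 39.2. By role, 3 of the 4 folding and modifier genes rose and 1 fell, and 2 of the 5 matrix and cytoskeleton genes rose and 3 were not called. Of the 3 genes of mitochondria and vitamin E transport 2 fell and 1 was not called. Of the 8 signalling and traffic genes 1 rose, 2 fell and 5 were not called, and of the 4 genes of growth arrest, repair and elongation 1 rose, 1 fell and 2 were not called. Of the 3 transcription factors 1 rose, 1 fell and 1 was not tested. The shares over all genes were 26.7% higher and 36.5% lower, the roles were assigned with the values known, and counts this small are descriptions.

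Lists with a member also held genes that moved at 1 µM, as did a large share of all genes. In the list for stress of the endoplasmic reticulum and Atf4, 14 of 28 genes rose and 5 fell at 1 µM, and 19 rose and 2 fell at 3 µM, with medians of 0.26 and 0.62, against -0.01 and -0.02 over all genes, of which 29.8% were called higher and 27.3% lower at 1 µM and 36.0% higher and 35.1% lower at 3 µM. xbp1 is the 1 member of the list. ddit3 (Chop) was already raised by 1.46 at 1 µM (adjusted p = 2.6e-12) and by 2.65 at 3 µM, chac1 by 1.76 and 2.71, and atf4 by 1.03 and 1.14. ern1, the gene for Ire1, was lower at both, at -0.86 and -1.10 (adjusted p = 1.9e-08 and 1.2e-10). Others of this list were near control at 1 µM and rose at 3 µM by less than a member had to: eif2ak3 (Perk) was at -0.18 and 0.78, dnajc3a at 0.05 and 0.58, and atf6 at 0.19 and 0.42.

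Among immediate early and AP-1 genes, 10 of 19 rose and 4 fell at 1 µM, and 11 rose and 4 fell at 3 µM, with medians of 0.38 and 0.55. The shares over all genes were those given for the list before. jun is the member. Its partners fosl1a (1.33 and 3.40) and atf3 (1.07 and 0.66) and the small Maf gene maff (1.48 and 2.56) rose at both concentrations, while junb was at 0.00 and 0.31 (adjusted p = 0.205 at 3 µM). At 250 µM arsenosugar 12 of the 19 rose and 4 fell, beside 26.7% higher and 36.5% lower over all genes. The gene junb was among those that rose, by 3.95. In the list for DNA damage, p53 and apoptosis, which holds btg2, 9 of 25 rose and 8 fell at 1 µM (median 0.01). At 3 µM 11 rose and 11 fell (median 0.11). Over all genes the shares were 29.8% higher and 27.3% lower at 1 µM, and 36.0% higher and 35.1% lower at 3 µM. cdkn1a, a target of p53 that stops the cell cycle, was at 0.01 at 1 µM and rose by 1.19 at 3 µM (adjusted p = 7.8e-05), below the limit for a member.

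Lists that matched no member by symbol gave the setting. The 68 members with a locus name only could not be matched in this way. Members with related roles, among them cnpy3, isg15, rn146 and myd88, were not on the lists, so the pathways are not without members. Over all genes 29.8% were called higher and 27.3% lower at 1 µM, and 36.0% higher and 35.1% lower at 3 µM. For heat shock and protein folding 12 of 18 genes rose at 1 µM and 13 at 3 µM, with medians of 1.52 and 2.72 and values up to 8.13 for hsp30, while 2 fell at each. For ubiquitin, proteasome and autophagy 16 of 18 rose at 1 µM, and at 3 µM 15 rose and 2 fell (median 0.96). NRF2 and oxidative stress genes rose in 11 of 19 at 1 µM and 10 at 3 µM, and fell in 5 and 6. Inflammation genes rose in 6 of 8 at 1 µM and 5 at 3 µM, where 2 fell. Of 15 hepatocyte function genes 13 fell at 1 µM and 12 at 3 µM, and 1 rose at each. Cell cycle genes rose in 2 of 18 at 1 µM and 6 at 3 µM, and fell in 7 at each. Cytoskeleton (4 higher, 3 lower of 10), growth factor (4 and 2 of 8) and metal (1 and 5 of 8) lists split at 3 µM.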

How the data were processed

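The deposited table is a read signal. Per the submitters' processing notes HISAT2, featureCounts (Subread) and DESeq2 1.40.2 were used, and the values show that the authors scaled whole gene counts by a size factor of each library. Whole reads came back for 100% of values within 0.1 reads and served for depth and for edgeR. Reads without molecular identifiers are not independent molecules. Build, strand setting and the handling of reads shared by duplicated genes were not given in the sources used here, and a salmon symbol can be 1 of several copies.

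Tests used limma 3.58.1 (R 4.3.3) on log2(value + 1) with fish as a block. Genes needed a value of 10 in 6 libraries of the fit. Tests were two-sided, with Benjamini-Hochberg adjustment over all genes and a threshold of 0.05. A fit held the 24 arsenite libraries, another the arsenosugar control, 5, 10 and 50 µM libraries, and the last the 250 µM libraries with their control (12 libraries). The added 1 shrinks changes of genes with few reads, but libraries at 0 weigh heavily in a mean of logs and can enlarge a fall. LOC106602015, at 0 in fish 2 at 250 µM, differed there by -0.18 in limma and by 0.55 in edgeR, and was called in neither. At 250 µM size factors ranged over 0.106 to 0.590, so that 1 normalised read is under 1 sequenced read. The code was tested on simulated data. Same-numbered libraries come from the same fish per the labels. Across genes their deviations from group means had a median r of 0.234 (other pairs -0.0432) for arsenite, 0.364 (-0.0744) for arsenosugar and 0.0963 (-0.0296) at 250 µM.

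Members and lists were chosen with earlier results of these data known, so 1 and 3 µM arsenite were not tested on members, and 1 gene that the rule leaves out is not reported here. Gene names and gene order came from a RefSeq table (Ssal_v3.1) that held 18900 of 18901 identifiers. Named genes are the 12 symbols with the largest 3 µM difference, the 6 members with most reads, members in a list, members called where 5 or fewer were, the 5 largest rises and falls at 250 µM, the 3 most and least even over fish, and the 2 beside each limit. Other symbols, neighbours and the examples from lists were added after their values were seen. Alternatives were edgeR 4.0.16, library totals, TMM factors, an added value of 5, no filter, no fish term, only the libraries compared, other limits and each fish left out. The planned promoter motif search was not run, since no promoter sequence was used here.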

Additional observations from a re-analysis of the deposited data

Results flagged for a closer look

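Of 43 groups of 6 libraries checked for the genes followed in most detail, 2 had 1 library far from the other 5, and chance alone gives about 1 in 20. mycn had 18.1 normalised reads in the arsenite control of fish 5, against a group median of 7.44. jun had 3698 normalised reads at 3 µM arsenite in fish 2, against a group median of 1489. Other groups of such genes with 1 library apart are not in that count. They include jun at 1 µM (951 in fish 2, against 375 to 433) and, in fish 1 at 0.1 µM, myd88 (287, against 98.6 to 150) and cnpy3 (23.8, against 77.3 to 96.5). At 250 µM arsenosugar cnpy3 had 1419 in fish 6, against 186 to 492. The count of 2 thus leaves groups out and cannot be set against the rate of chance.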

How the results depend on the processing

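The number of members moved with the limits: 27 genes at a rise of at least 2, 205 with 0.5 as the limit at 1 µM, 55 with library totals, and 99 to 107 with each fish left out. At a rise of at least 1 it came to 300, which is the most that the rule keeps, so the true number there is 300 or more. Without fish 6, the counts of members called higher at 5 and 50 µM arsenosugar became 1 and 2 in place of 0 (0 to 1 and 0 to 2 over the fish left out). The 1 member called lower at 50 µM became 0 with library totals, without the replicate block and in the fit of only the 12 libraries compared, and 0 to 2 with a fish left out. At 250 µM library totals gave 11 lower calls in place of 17, and the fish left out gave 13 to 17 lower and 34 to 40 higher; without the replicate block there were 39 higher and 16 lower calls, and leaving out the library with the fewest reads, an alternative chosen after seeing the data, gave 40 and 16. Of the single-gene changes recomputed at 250 µM, 335 stayed on their side of the threshold, 6 passed it newly (all jakmip1), 7 lost it, and no called value among them changed direction; for the other members only counts were recomputed. The block changed no other count of calls among members by more than 1.5 times. Depth limits the 250 µM values, where 5 members could not be tested and 3 of the falls named rest on 13 to 15 reads. The causes were not tested.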
